A study of Homo sapiens with 6 samples.

Results

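Long intergenic noncoding RNAs that carry a numbered LINC symbol were followed after vitamin C in MDA-MB-231, an established cell line from a human breast tumour of the triple-negative type. Of 2190 LINC genes that the GENCODE 44 annotation places on GRCh38 and the count tables list, 111 were selected on their mean raw count, which was at least 20 over the 6 libraries, and these are called the LINC members here. They are 111 of the 60675 gene identifiers and 111 of the 15261 genes that passed the filter on low counts, a filter that all 111 passed. The 111 identifiers carry 110 symbols, because LINC01605 covers 2 identifiers. Just inside the limit were LINC01356 with a mean of 20.3 counts and LINC02936 with 20.7, and just outside were LINC01410 with 19.7 and LINC01341 with 19.3. LINC00996 marked the group from the start because its rise was already known from these libraries, so its values are a description.

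The vitamin C group consisted of 3 wells given 100 μM sodium ascorbate for 3 days with new medium each day, and the control group of 3 wells without vitamin C. All wells held the same cell line, grown in plates, and the labels give no other difference between the groups. Total RNA was depleted of ribosomal RNA and sequenced as paired ends, and the authors deposited counts of reads per gene. Reads counted in genes ranged from 13434130 to 19553914 in the vitamin C libraries and from 17664345 to 22373591 in the control libraries, and 24.7% to 49.5% of read pairs were unmapped in the vitamin C libraries against 24.2% to 34.4% in the control libraries. Vitamin C 2, the library with 49.5%, was the least like the others across all genes, with a chi-square per degree of freedom of 15.7 and 21.6 against the other vitamin C libraries and 11.8 between those. VIM, CD44, EGFR and AXL, which this mesenchymal line is known to express, averaged 1260, 1140, 301 and 885 CPM in the vitamin C wells and 1280, 962, 337 and 889 CPM in the control wells, and none of the 4 was called by edgeR (1 at an unadjusted p under 0.05, none by DESeq2). Luminal markers (8 genes) summed to 439 to 505 CPM in the vitamin C libraries and 359 to 434 CPM in the control libraries, with ESR1 at 0 and only KRT8 called (log2 fold change 0.40, edgeR adjusted p = 0.022). The 5 that passed the filter had log2 fold changes of 0.16 to 1.33. ERBB2, GATA3 and CDH1 were at an unadjusted edgeR p under 0.05 but were not called (edgeR adjusted p = 0.0769, 0.107 and 0.113). The part of these luminal markers in the results was not tested. Among 8 blood cell markers CD3D and MS4A1 were at 0. No source says that the wells came from separate cultures, so the p-values cover only well-to-well spread, which may be technical.

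LINC RNAs are made by RNA polymerase II from their own promoters between protein-coding genes, and most are capped and spliced like mRNAs but carry no long conserved reading frame. Some act in the nucleus on chromatin or on the transcription of nearby genes, some bind proteins or microRNAs in the cytoplasm, and a few encode short peptides, while most have no described function. Vitamin C is a cofactor of TET enzymes, which oxidise methylated cytosine at CpG dinucleotides, and of the hydroxylases that mark HIF transcription factors for destruction.

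Promoter windows show the letters around the RefSeq start of these RNAs, with their CpG and HIF-type core letters. RefSeq gives a window of 300 bases, from 250 before to 50 after the start, for 81 of the members on build GRCh38.p14. The windows of 4 of the members whose level changed are printed 5′ to 3′ in lower case with CpG dinucleotides in capitals, because these RNAs carry the results.
LINC00996: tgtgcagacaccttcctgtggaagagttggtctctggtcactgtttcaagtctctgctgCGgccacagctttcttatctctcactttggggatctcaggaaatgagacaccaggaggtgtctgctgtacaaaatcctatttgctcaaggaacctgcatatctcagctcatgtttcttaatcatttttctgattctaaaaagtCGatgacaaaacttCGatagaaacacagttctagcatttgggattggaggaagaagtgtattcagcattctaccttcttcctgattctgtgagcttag
LINC02475: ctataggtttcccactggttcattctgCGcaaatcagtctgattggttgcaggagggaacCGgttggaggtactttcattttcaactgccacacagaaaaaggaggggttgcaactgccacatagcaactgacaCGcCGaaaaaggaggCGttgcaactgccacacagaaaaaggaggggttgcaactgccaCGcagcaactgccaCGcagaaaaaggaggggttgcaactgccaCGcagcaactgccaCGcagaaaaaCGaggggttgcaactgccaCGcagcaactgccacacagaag
LINC01278: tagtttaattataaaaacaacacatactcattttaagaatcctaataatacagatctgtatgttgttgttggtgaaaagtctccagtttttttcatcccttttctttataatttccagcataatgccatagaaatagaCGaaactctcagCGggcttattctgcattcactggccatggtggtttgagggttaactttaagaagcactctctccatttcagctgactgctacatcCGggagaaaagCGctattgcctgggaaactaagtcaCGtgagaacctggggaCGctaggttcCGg
LINC01003: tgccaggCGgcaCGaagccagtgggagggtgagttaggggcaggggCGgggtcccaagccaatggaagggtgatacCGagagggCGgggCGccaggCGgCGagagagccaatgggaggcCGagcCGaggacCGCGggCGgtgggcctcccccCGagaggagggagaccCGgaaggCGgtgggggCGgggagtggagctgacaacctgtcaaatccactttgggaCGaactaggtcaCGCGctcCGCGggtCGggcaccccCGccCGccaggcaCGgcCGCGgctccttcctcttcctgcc
The LINC00996 window lies at chr7:150433404-150433703 on the plus strand and holds 3 CpG. The LINC02475 window, at chr4:44016611-44016910 on the plus strand, holds 11 CpG and contains gttgcaactgcc 5 times, as part of a tandem repeat. The LINC01278 window, at chrX:63561046-63561345 on the minus strand, holds 7 CpG. The LINC01003 window, at chr7:152463874-152464173 on the plus strand, is a CpG-rich start with 28 CpG and a GC content of 71.7%. RefSeq and GENCODE place the start at the same base for LINC00996 and LINC01278, and 161 bases apart for LINC02475 and 338 bases apart for LINC01003. Over the 81 members the starts lay a median of 44 bases apart, but more than 1000 bases apart for 15 members and 622748 bases apart for LINC01505, so those windows may not be the start of the RNA counted. The other 66 windows had a median of 10.5 CpG. Over the 81 windows the median was 10 CpG against 14 over all 35116 promoters, and 42% of the member windows held at least 15 CpG against 48.9% of all promoters. The letters ACGTG or GCGTG, searched on both strands, occurred in 41 of the 81 member windows (50.6%) and in 48.4% of all promoters. GCGTG matched 6 times in the LINC02475 window and 1 time in the LINC01003 window, ACGTG matched the LINC01278 window 2 times through a palindrome read on both strands, and neither occurred in the LINC00996 window. A match is a description of letters, and DNA methylation was not analysed here.

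Most members were low in abundance. On the scale of CPM per kb of exon, which allows levels of different genes to be compared, the median member was at 0.851 and the range ran from 0.172 to 19.5, against a median of 5.37 for the protein-coding genes tested. In all, 63 members were under 1 and 10 were over 5 on this scale. Their exons cover a median of 4.18 kb (0.55 to 33.2 kb), the annotated transcript with the most exons has a median of 4, and 9 members have a single exon. They lie on 23 chromosomes, with 13 each on chromosomes 1 and 2 and 7 on chromosome X. Although the name says intergenic, 17 members overlapped the body of a protein-coding gene and 11 shared exon bases with one, and the other 94 overlapped none. Whether the counting used strand is not given in the sources at hand. For the 10 members with a protein-coding gene on the opposite strand, how reads were divided between member and gene is therefore not known.

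The most abundant member per kb of exon was LINC00973, an RNA studied in several carcinomas, with a mean of 19.5 CPM per kb and 14.5 to 32.7 over the libraries. Its level was 16.0, 31.4 and 14.8 CPM in vitamin C 1, 2 and 3, against 20.1, 14.0 and 16.3 CPM in control 1, 2 and 3. The high value was that of vitamin C 2 alone and the groups overlapped (log2 fold change 0.30, SE 0.24, edgeR adjusted p = 0.461). Without vitamin C 2 the log2 fold change was −0.13, so its direction turned with this library left out. Next were LINC01357 at 16.0, LINC03033 at 7.07, LINC00941 at 6.78 and LINC03061 at 6.14 CPM per kb, of which only LINC03061 was called. LINC00973 and LINC01357 do not differ beyond their spread over libraries (13.3 to 23.0 CPM per kb for LINC01357), and neither do LINC03033 (5.15 to 8.11), LINC00941 (5.74 to 8.37) and LINC03061 (4.29 to 9.24). LINC00472, described as a suppressor of breast tumour growth, took the most counts, a mean of 1615 per library. It averaged 90.5 ± 7.9 CPM in the vitamin C wells and 91.8 ± 20.5 CPM in the control wells (SD, n = 3 each), with a log2 fold change of −0.02, and its exons overlap those of OGFRL1.

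After vitamin C, 6 members rose and 1 fell in the quasi-likelihood test of edgeR, with p adjusted after Benjamini and Hochberg over all genes tested. That is 7 of 111 or 6.31%, beside 7.08% of all genes, of which 3.6% were higher and 3.48% lower. Asking for an adjusted p under 0.05 in both edgeR and DESeq2 left 6 members or 5.41%, beside 6.34% of all genes, and DESeq2 alone called the same number, 6 higher and 0 lower, where it called 10.7% of the genes it tested. With both directions pooled, the share of members called was near the background by each rule or below it. By direction, edgeR called 5.41% of members higher and 0.901% lower, beside 3.6% and 3.48% of all genes. Among all genes with a mean of 20 to 500 counts it called 4.07% and 2.32%. At a mean of at least 20 counts, antisense lncRNAs had 5.42% and 0.678%, and lncRNAs without a symbol 6.28% and 0.546%. Divergent lncRNAs had 4.08% and 0%, lncRNAs with another symbol 2.22% and 3.33%, and hosts of small RNAs 0% and 18.2%. The split by direction was thus not particular to the members. Without adjustment, 22 members were higher and 7 lower at p under 0.05, where 14.3% and 13.1% of all genes were. The RNA came from whole wells, so fewer cells expressing an RNA and less of it per cell cannot be told apart.

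LINC00996, a spliced RNA from the edge of the GIMAP gene cluster on chromosome 7 (chr7:150433654-150448141, plus strand, 4 exons), had the largest rise among the members. It was at 16.6, 20.4 and 17.2 CPM in vitamin C 1, 2 and 3, against 6.32, 7.06 and 7.46 CPM in control 1, 2 and 3. The lowest vitamin C well was above the highest control well by more than the range within either group. The log2 fold change was 1.38 (SE 0.13, 2.59-fold, edgeR adjusted p = 0.000386, DESeq2 adjusted p = 3.43e-14). Leaving out each library in turn gave log2 fold changes of 1.28 to 1.43, each called, and without control 1 and vitamin C 2 together the value was 1.22.

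The GIMAP genes that follow LINC00996 on the chromosome encode GTPases best known from lymphocytes. GIMAP7, GIMAP4 and GIMAP5 were at 0 in every library, and the 7 genes together summed to 1.81 to 3.56 CPM in the vitamin C libraries and 1.48 to 2.54 CPM in the control libraries. GIMAP8, whose start lies 17.0 kb away on the same strand, was at 1.93, 1.45 and 2.61 CPM in vitamin C 1, 2 and 3, against 0.911, 1.55 and 1.54 CPM in control 1, 2 and 3. These ranges overlapped (log2 fold change 0.59, SE 0.29, edgeR adjusted p = 0.21). GIMAP2, the other gene of the cluster that passed the filter, had a log2 fold change of −0.37 (edgeR adjusted p = 0.607). CD14, the only one of the 8 blood cell markers that passed the filter, had a log2 fold change of 0.89 (edgeR adjusted p = 0.0912), and the 8 markers summed to 2 to 2.61 CPM in the vitamin C libraries against 0.968 to 2.19 CPM in the control libraries.

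LINC02475 (chr4:44016700-44022063, plus strand, 2 exons) was at 4.0, 4.85 and 3.96 CPM in vitamin C 1, 2 and 3, against 1.42, 2.31 and 2.39 CPM in control 1, 2 and 3. The groups did not overlap, and control 1 was the lowest well. The log2 fold change was 1.04 (SE 0.22, edgeR adjusted p = 0.0228). It has no described function known with certainty and no protein-coding start within 100 kb. The call was lost without control 1, control 2 or vitamin C 2, with adjusted p of 0.079, 0.0644 and 0.0536 and log2 fold changes of 0.86, 1.14 and 0.95.

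LINC03061 (chr13:109269634-109278512, plus strand) was at 34.0, 47.0 and 32.8 CPM in vitamin C 1, 2 and 3, against 21.8, 23.2 and 28.7 CPM in control 1, 2 and 3. Vitamin C 2 stood well above the other wells and vitamin C 3 was the closest to the controls, though the groups did not overlap. The log2 fold change was 0.62 (SE 0.15, edgeR adjusted p = 0.0333), and 0.44 without vitamin C 2 (edgeR adjusted p = 0.0684). The call was also lost without control 1 (adjusted p = 0.134) or control 2 (adjusted p = 0.108).

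LINC02977 (chr9:112028570-112039143, minus strand) was at 9.04, 8.26 and 9.53 CPM in vitamin C 1, 2 and 3, against 6.26, 6.04 and 5.82 CPM in control 1, 2 and 3. The wells within each group lay close together and the gap between the groups was wider than either range. The log2 fold change was 0.57 (SE 0.13, edgeR adjusted p = 0.0293). Only without vitamin C 2 or vitamin C 3 was it still called (adjusted p = 0.0372 and 0.0401), and with another library left out the adjusted p was up to 0.0994 while the log2 fold change was 0.54 to 0.59.

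LINC01278, a long transcription unit of up to 11 exons on chromosome X (chrX:63222993-63561095, minus strand), was at 13.9, 14.6 and 13.5 CPM in vitamin C 1, 2 and 3, against 10.6, 10.6 and 9.60 CPM in control 1, 2 and 3. The groups did not overlap (log2 fold change 0.45, SE 0.11, edgeR adjusted p = 0.0362). SPIN4, a single-exon gene for a histone reader that lies on the same strand inside LINC01278 without sharing exons, was at 11.8, 11.8 and 18.5 CPM in vitamin C 1, 2 and 3, against 24.4, 18.3 and 17.5 CPM in control 1, 2 and 3. Its estimate had the opposite sign but did not pass edgeR's test, and vitamin C 3 lay among the controls (log2 fold change −0.49, SE 0.18, edgeR adjusted p = 0.11, DESeq2 adjusted p = 0.0494). The LINC01278 call was kept only without vitamin C 3 (edgeR adjusted p = 0.029) and its adjusted p was up to 0.106 without one of the other libraries.

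LINC01605 on chromosome 8 has 2 identifiers in these counts. The longer unit (ENSG00000253161, chr8:37421341-37554183, minus strand) was at 14.5, 18.8 and 14.7 CPM in vitamin C 1, 2 and 3, against 10.2, 10.9 and 12.7 CPM in control 1, 2 and 3. The groups did not overlap, with vitamin C 2 the highest (log2 fold change 0.50, SE 0.13, edgeR adjusted p = 0.0466). Without vitamin C 2 the log2 fold change was 0.37 (edgeR adjusted p = 0.121), and only without vitamin C 3 was it still called (adjusted p = 0.0272). The shorter unit (ENSG00000253414) did not pass the test, with −0.28 on the log2 scale (SE 0.21, edgeR adjusted p = 0.417). How reads divide between the pair depends on the counting.

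LINC01003 (chr7:152463786-152465549, plus strand, 1 exon) was the only member that fell. It was at 2.89, 1.96 and 2.91 CPM in vitamin C 1, 2 and 3, against 4.27, 4.84 and 3.93 CPM in control 1, 2 and 3, with no overlap and with vitamin C 2 the lowest. The log2 fold change was −0.74 (SE 0.20, edgeR adjusted p = 0.0457, DESeq2 adjusted p = 0.051). The call rested on a narrow margin and was kept only without vitamin C 3 (adjusted p = 0.0322). KMT2C, the histone methyltransferase gene whose start lies 27.1 kb away on the opposite strand, averaged 218 ± 37.3 CPM in the vitamin C wells and 185 ± 5.1 CPM in the control wells (log2 fold change 0.24, edgeR adjusted p = 0.186).

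**Figure D1:**
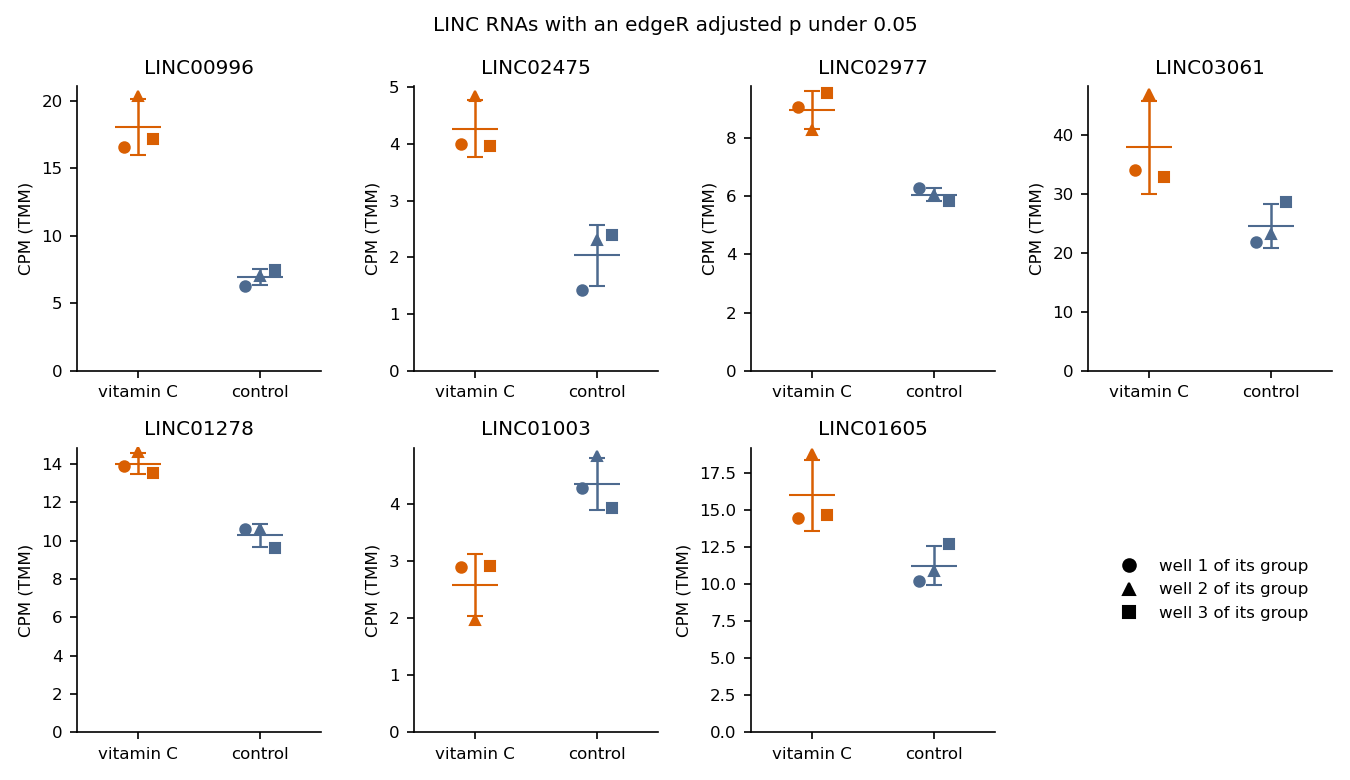
Expression in CPM with TMM scaling, on axes that start at 0, of the 7 LINC members with an edgeR adjusted p under 0.05, in the vitamin C wells and the control wells. Points are wells (circle, triangle and square for wells 1, 2 and 3 of a group), the horizontal line is the mean and the bars are the SD (n = 3). LINC00996 has the largest log2 fold change of the 7, 1.38, with 18.1 ± 2.05 CPM in vitamin C wells and 6.95 ± 0.578 CPM in control wells.

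Across the 7 called members, vitamin C 2 was the well of its group farthest from the controls in 6, LINC02977 being the exception, and this library had the largest share of unmapped read pairs. Its part in the values was not tested beyond leaving it out, which left 2 members called, LINC00996 and LINC02977. LINC00996 was the only member called whichever single library was left out. The count over all genes moved too, with 1080 called from all libraries and 128 to 1900 with 1 left out.

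**Figure D2:**
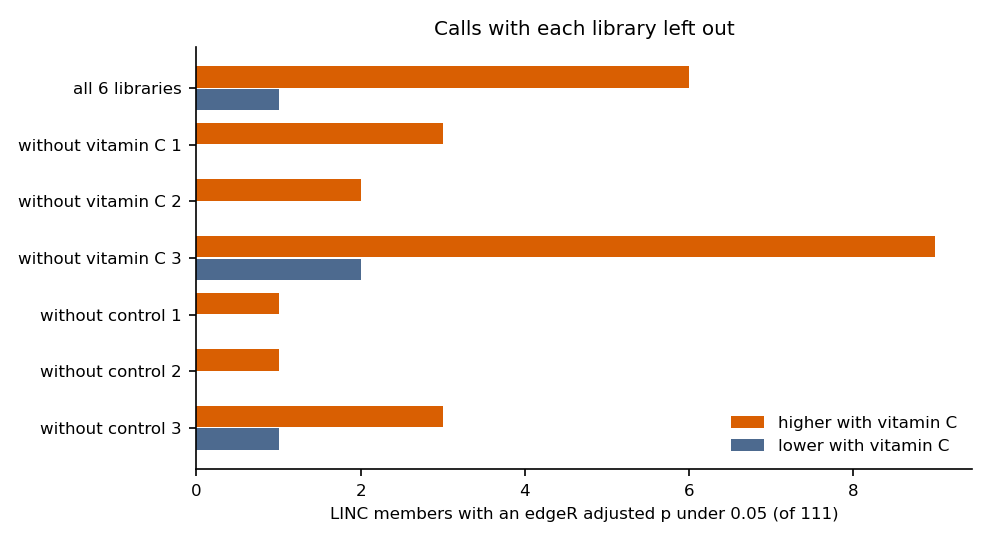
Number of LINC members, of 111, with an edgeR adjusted p under 0.05 when all 6 libraries were used or 1 was left out, higher with vitamin C (upper bar) or lower (lower bar). The higher members number 6 with all libraries, 1 without control 1 or without control 2, and 9 without vitamin C 3.

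The next 3 members by p lay just above the threshold. LINC02535 was at 2.59, 2.32 and 2.06 CPM in vitamin C 1, 2 and 3, against 3.64, 3.64 and 3.58 CPM in control 1, 2 and 3 (log2 fold change −0.65, SE 0.18, edgeR adjusted p = 0.0508). LINC02762 was at 2.08, 1.67 and 2.36 CPM in vitamin C 1, 2 and 3, against 0.854, 1.02 and 1.34 CPM in control 1, 2 and 3 (log2 fold change 0.93, SE 0.26, edgeR adjusted p = 0.0516). LINC01186 was at 0.593, 0.797 and 0.903 CPM in vitamin C 1, 2 and 3, against 1.88, 1.73 and 1.19 CPM in control 1, 2 and 3 (log2 fold change −1.03, SE 0.29, edgeR adjusted p = 0.0552). The groups of these 3 did not overlap, yet none of them passed the test. Together with LINC00963, LINC02595, LINC02709, LINC02984 and LINC01224 they made 8 members with an edgeR adjusted p between 0.05 and 0.1, of which 5 had higher and 3 lower estimates.

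Estimates over all 111 members leaned to higher levels after vitamin C. The median log2 fold change was 0.13 against 0.02 over all genes tested, and 69 members (62.2%) had an estimate above 0 against 52.4% of all genes. The vitamin C wells were all above the control wells for 27 members (24.3%), where 15.7% of all genes were, and all below for 14 members (12.6%), where 16.6% were. Among all genes with a mean of 20 to 500 counts these shares were 17.6% and 12.2%. Standard errors had a median of 0.20 (0.09 to 0.34), and 3 members had an estimate of at least 2-fold in either direction (LINC00996, LINC02475 and LINC01186). The 7028 genes with a mean of 20 to 500 counts had a median of 0.05 and 57.3% of estimates above 0. Antisense lncRNAs with a mean of at least 20 counts had a median of 0.18 (295 genes) and lncRNAs without a symbol 0.21 (366 genes), so medians above that of all genes were also seen in other lncRNA classes. Divergent lncRNAs (98 genes) and lncRNAs with another symbol (90 genes) were near all genes, with medians of 0.03 and 0.04. Hosts of small RNAs had a median of −0.10 (44 genes). Of the 61 LINC genes under a mean of 20 counts that passed the filter, LINC02068 (log2 fold change 1.89) and LINC01341 (1.35) were called, which is 3.28% beside 7.08% of all genes. LINC02068 was at 1.56, 1.52 and 1.61 CPM in vitamin C 1, 2 and 3, against 0.626, 0.4 and 0.249 CPM in control 1, 2 and 3. A gene this low in the control wells can pass the count filter through its vitamin C wells, so its fold change is a description. With 1 library left out, LINC02068 kept its call in 5 of 6 fits (edgeR adjusted p up to 0.0589) and LINC01341 in 1 (up to 0.118).

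**Figure D3:**
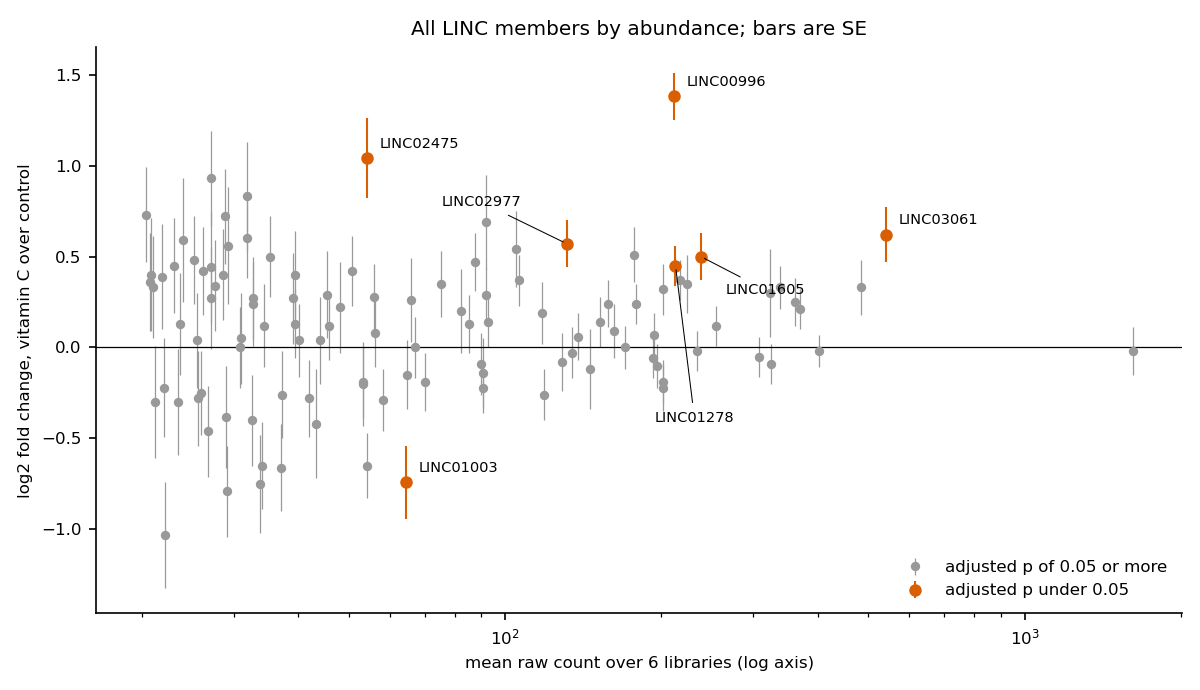
Log2 fold change (vitamin C over control) plotted for each of the 111 LINC members against its mean raw count over 6 libraries (log axis), with bars of 1 SE. Orange points are the 7 members with an edgeR adjusted p under 0.05; LINC00996 at 1.38 stands above the others of similar count, and estimates scatter more widely below 100 counts.

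The members together took a small and slightly larger share of the RNA after vitamin C. Their share of gene counts was 0.0774%, 0.0823% and 0.0747% in vitamin C 1, 2 and 3, against 0.0711%, 0.0702% and 0.069% in control 1, 2 and 3. The groups did not overlap, and the ratio of the mean shares was 1.11. Without the 5 members of highest count the shares were 0.0573%, 0.0603% and 0.0558% in vitamin C 1, 2 and 3, against 0.0516%, 0.0524% and 0.0515% in control 1, 2 and 3. LINC00996 was not among these 5, so its rise remained in both sets of shares. Vitamin C 2 held the highest value of 41 members (36.9%, against 24% of all genes), vitamin C 1 of 23 (20.7%, against 14.5%) and vitamin C 3 of only 10 (9.01%, against 17.3%), while control 1 held the lowest value of 31 (27.9%, against 24.8% of all genes). The ratio was 1.08 without vitamin C 2 and 1.09 without both libraries.

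The lists of LINC RNAs studied in cancer held few members, too few for a count of calls to be read against the background of 7.08%. Of 17 LINC RNAs listed for their study in breast cancer, 5 were members and none passed edgeR's test (1 lower at an unadjusted p under 0.05, none by DESeq2). The log2 fold changes of these 5 ran from −0.65 to 0.35, with −0.02 as the median. LINC01234, LINC00461 and LINC00518 are on the list but lay under a mean of 20 counts. Their log2 fold changes were 1.72, 0.78 and 0.46 (edgeR adjusted p = 0.0564, 0.184 and 0.382). LINC01234 averaged only 0.264 CPM in the control wells, so its fold change is a description. LINC00511, an RNA linked to growth and stemness of breast cancer cells, averaged 10.5 ± 0.118 CPM in the vitamin C wells and 10.9 ± 0.694 CPM in the control wells. LINC01638, described as a partner of MYC in triple-negative cells, was at 1.04, 1.74 and 1.51 CPM in vitamin C 1, 2 and 3, against 1.99, 2.26 and 2.49 CPM in control 1, 2 and 3. Its groups did not overlap, but the difference did not pass the test (log2 fold change −0.65, SE 0.24, edgeR adjusted p = 0.108). LINC00665, LINC00472 and LINC00899 had log2 fold changes of 0.35, −0.02 and 0.29, the last of which was −0.01 without vitamin C 3. LINC02273, LINC00993, LINC01016 and LINC01087 were at 0 in every library, and the last 3 of them are known from tumours with hormone receptors.

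Of 20 LINC RNAs listed for other carcinomas, 10 were members, none passed edgeR's test at the same background of 7.08% (1 higher at an unadjusted p under 0.05, none by DESeq2), and the median log2 fold change was −0.01 (−0.29 to 0.37). LINC00963, first described in prostate cancer, was at 14.4, 14.0 and 13.4 CPM in vitamin C 1, 2 and 3, against 10.1, 10.8 and 11.3 CPM in control 1, 2 and 3. The wells of the groups lay well apart, yet the adjusted p stayed above the threshold (log2 fold change 0.37, SE 0.11, edgeR adjusted p = 0.0572). LINC00667, LINC01116 and LINC00857 were near 0, at −0.02, −0.02 and 0.00 on the log2 scale, with SE of 0.09, 0.11 and 0.12. Of the 5 RNAs listed for a described micropeptide, 2 were members and neither passed the test. LINC00467, whose peptide associates with ATP synthase, averaged 22.3 ± 0.173 CPM in the vitamin C wells and 19.2 ± 2.79 CPM in the control wells (log2 fold change 0.21, edgeR adjusted p = 0.248). LINC00665, whose peptide binds the phosphatase inhibitor CIP2A, averaged 4.86 ± 0.697 CPM in the vitamin C wells and 3.77 ± 0.552 CPM in the control wells (edgeR adjusted p = 0.227).

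Protein-coding neighbours were examined because some LINC RNAs act on genes close to them. For 68 members a protein-coding start lay within 100 kb, at a median distance of 36.5 kb, in 38 cases on the same strand, in 24 on the opposite strand, and in 6 as a divergent pair with starts within 2 kb. Of these neighbours, 48 pairs with 45 different genes could be tested, and none was called by edgeR, where 7.08% of all genes were. Without adjustment 5 were higher and 9 lower at p under 0.05, beside 14.3% and 13.1% of all genes, and DESeq2 called 0 higher and 2 lower, beside 10.7% of the genes it tested. Their log2 fold changes ranged from −0.85 to 0.70 with a median of 0.06, and the smallest edgeR adjusted p were those of PSMD14, a proteasome subunit gene next to LINC01806, at 0.0574 (log2 fold change −0.28) and of AURKB, a mitotic kinase gene next to LINC00324, at 0.0623 (log2 fold change −0.32). By estimates rounded to 2 decimals, the member and its neighbour had the same sign in 27 of the 48 pairs. SWAP70, next to LINC02709, rounded to 0 and was counted as not matching. Its fold of 0.997 was below 1, as was that of LINC02709 (0.578). LINC00664 and ZNF429, LINC00863 and NUTM2D, LINC01011 and NQO2, and LINC01232 and TM9SF2 share exon bases, so their counts may not be independent. Signs matched in the pairs of LINC00664 and LINC00863 and differed in those of LINC01011 and LINC01232. Only 2 of the 7 called members, LINC00996 and LINC01003, had a protein-coding start within 100 kb.

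**Figure D4:**
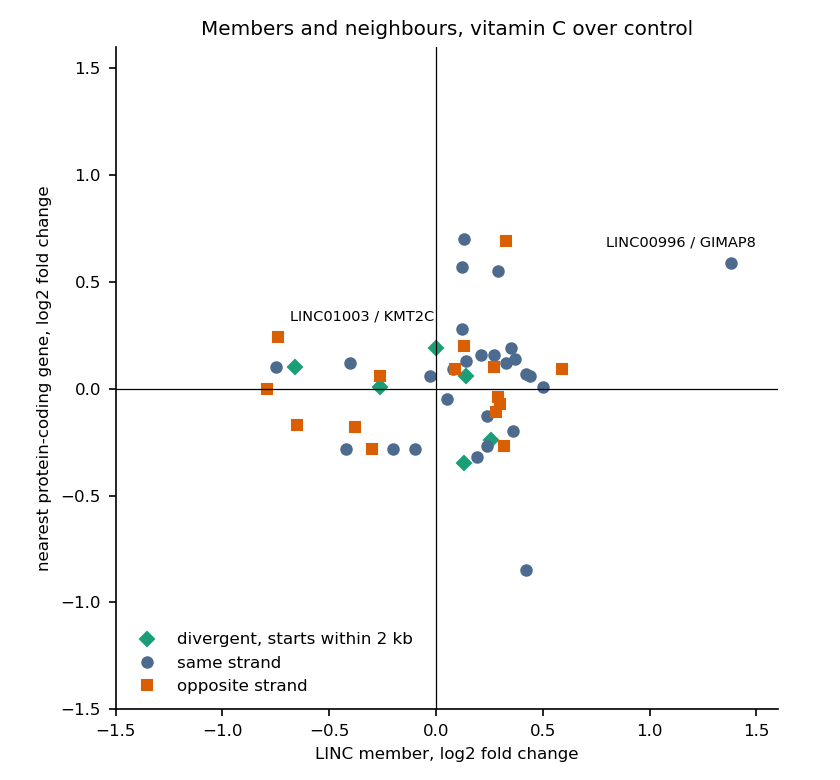
Log2 fold change, vitamin C over control, of the nearest protein-coding gene (vertical axis) against that of the LINC member (horizontal axis) for 48 pairs with starts within 100 kb; diamonds are divergent pairs, circles pairs on the same strand and squares pairs on opposite strands. Signs of the rounded estimates match in 27 pairs, and LINC00996 at 1.38 is paired with GIMAP8 at 0.59.

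The 6 divergent pairs showed both combinations of sign. LINC01560 and ZNF41, whose starts lie 0.349 kb apart, had log2 fold changes of −0.66 (edgeR adjusted p = 0.103) and 0.10 (edgeR adjusted p = 0.522). LINC01134 and C1orf174 had 0.13 and −0.35, LINC01088 and PAQR3 0.26 and −0.24, LINC00938 and ARID2 −0.26 and 0.01, LINC00205 and POFUT2 0.14 and 0.06, and LINC00857 and ANXA11 0.00 and 0.19. No gene of these pairs passed the test. In 8 pairs, members of different symbols lie within 100 kb of each other, and differences within these pairs were not tested. LINC01356 and LINC01357, which overlap on opposite strands of chromosome 1, had log2 fold changes of 0.73 and 0.35, LINC02228 and LINC02211 on chromosome 5 had 0.40 and 0.56, LINC00880 and LINC02029 on chromosome 3 had −0.75 and 0.27, and none of these 6 was called. LINC01356 was at 1.33, 1.52 and 1.51 CPM in vitamin C 1, 2 and 3, against 0.740, 1.07 and 0.796 CPM in control 1, 2 and 3, without overlap and with an edgeR adjusted p of 0.103.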

How the data were processed

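RNA-seq of 6 MDA-MB-231 libraries was analysed, 3 treated with vitamin C and 3 controls, grouped by the sample labels. Per the submitters' processing notes, reads were processed with CASAVA 1.4 and Trim Galore and aligned with STAR to hg38. What the authors deposited are raw, unnormalized counts per Ensembl gene. The annotation release, and whether strand was used, are not given in the sources at hand. The 4 summary lines (50.6% to 69.7% of read pairs) were left out. Reads with several positions were not counted in genes, so near-identical copies may be undercounted. The deposited table that joins all libraries was identical to them and was left aside.

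Names, positions and exon lengths came from GENCODE 44 (93.2% of 60675 identifiers matched). R 4.3.3, edgeR 4.0.16 (TMM factors 0.972 to 1.02, filterByExpr with a minimum count of 10, quasi-likelihood F test, Benjamini-Hochberg over all genes) and DESeq2 1.42.0 were used, with limma 3.58.1 (voom) as an alternative. The biological coefficient of variation was 9.4%, and the edgeR script was tested on simulated data. Replicates were not duplicates, since their counts differed beyond sampling noise (4.54 to 21.6 chi-square units per degree of freedom).

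The members and lists were chosen with earlier results of these data known. Named are LINC00996, members with an edgeR adjusted p under 0.05 and the next by p up to 10, the 5 most abundant per kb, those beside the limit of 20 counts, listed genes, and neighbours of named members. The values of 1 listed gene are not reported here. SPIN4, LINC02068, the other neighbour and close pairs and the other members with an adjusted p under 0.1 were chosen after their values were seen. Alternatives were other factors, filters, tests, tools and thresholds, a replicate block and each library left out.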

Additional observations from a re-analysis of the deposited data

How the results depend on the processing

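No called member, nor the median of the members, changed direction in the alternatives tried. Of the 111 members, 32 changed sign in at least 1 of 16 alternatives, each with a main log2 fold change of at most 0.30 in size. Against 6 higher and 1 lower members in the main fit, edgeR called 11 higher and 3 lower without the count filter (12.6% of members, 6.65% of all genes), 11 higher and 4 lower at an adjusted p under 0.1 (13.5%, 16.2%), and 1 higher and 0 lower without control 1 and vitamin C 2 (0.901%, 1.72%), an alternative chosen after seeing the data. Lower members numbered 0 with upper-quartile factors, 2 with median-ratio factors, 4 with the exact test, 4 with the likelihood ratio test (11.7% of members called by each test, 12.7% and 13% of all genes) and 0 with DESeq2. Replicate numbers did not pair the wells (correlations of same-numbered deviations −0.016, −0.0556 and −0.0452). With the replicate number as a block edgeR called 4 higher and 0 lower members (3.6%, 4.79% of all genes), and both tools called 2 higher. Both tools called 1 higher without control 1 and vitamin C 2. Leaving out each library in turn gave 1 to 9 higher and 0 to 2 lower by edgeR (0.901% to 9.91% of members, 0.809% to 12.3% of all genes), 1 to 6 higher by both tools, and 0 to 8 called neighbours, the 8 without vitamin C 3. Called neighbours, 0 in the main fit, numbered 4 without the filter, 2 with the exact test, 2 with the likelihood ratio test and 2 with DESeq2. LINC00996 kept its call in all 16 alternatives, and LINC02475 in 12, LINC03061 in 12, LINC02977 in 11, LINC01278 in 9, LINC01605 in 8 and LINC01003 in 7. The median log2 fold change of the members was 0.09 to 0.18. Log2 fold changes of named genes that turned sign were, with upper-quartile factors, 0.02 for LINC00472, 0.01 for LINC00667, 0.03 for LINC00857 and 0.02 for LINC01116, for LINC00857 also 0.0 over genes with a mean count of at least 20, for ARID2 −0.01 without the filter and 0.0 with DESeq2, and, without control 1 and vitamin C 2, −0.03 for LINC00324, 0.09 for LINC00472, 0.0 for LINC00667, −0.02 for LINC01088, 0.07 for LINC01116 and 0.0 for LINC01806. With 1 library left out they ran from −0.13 to 0.50 for LINC00973, −0.01 to 0.48 for LINC00899, −0.05 to 0.23 for LINC00941, −0.16 to 0.16 for LINC00472, −0.08 to 0.03 for LINC01116, −0.07 to 0.01 for LINC00667, −0.05 to 0.02 for LINC00857 and −0.05 to 0.05 for ARID2. The causes were not tested. The members had a median of 55.8 counts a library and a median SE of 0.20 on the log2 scale.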
